A study of Homo sapiens with 8 samples.

Results

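Mitosis and kinetochore genes were examined in SQ20B cells, an established human line of head and neck squamous cell carcinoma, kept in normoxia or in 0.5% O2 for 16 h. The list holds 60 genes of chromosome segregation and cell division, from cyclin B and the Aurora kinases to kinesins, centromere proteins and condensin subunits. Its members were chosen by gene name, with earlier results of these data known, and every RefSeq transcript of theirs in the deposited table was used. All 60 were listed, with 138 of the 24812 listed transcripts, among 14528 genes that could be named. Polyadenylated RNA of 4 normoxic and 4 hypoxic cultures had been sequenced, and the deposited table gives each transcript 1 FPKM value per condition, over its 4 replicates. FPKM relates the fragments of a transcript to its length and to the depth of the library, so that levels of different genes can be compared. The labels name no transgene, knockdown or drug in either group and give no oxygen level for normoxia. Nothing in them ties the cultures of a group to separate days or passages.

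As background, a dividing cell builds a spindle of microtubules, attaches each chromosome to it through a kinetochore assembled on the centromere, and separates the sister chromatids once all are attached. Cyclin B with CDK1 drives entry into mitosis, the spindle checkpoint delays anaphase until attachment is complete, and the anaphase-promoting complex with its activator CDC20 then ends mitosis by marking securin and the cyclins for degradation. Many of these genes are transcribed mainly in G2 and mitosis, under the control of FOXM1, B-MYB and the MuvB complex, and are used as markers of proliferating cells in tumours.

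For each gene the FPKM of its transcripts was added up, and the change is given as log2 of (hypoxia FPKM + 0.1)/(normoxia FPKM + 0.1). A gene entered the comparison if its FPKM averaged 0.5 or more, which left 12106, and all 60 members passed. Values of single cultures were not analysed here, so no difference below could be set against the spread between replicates, and none carries a test. The words fell and rose are kept for changes of at least 1.5-fold. In RNA of whole cultures, fewer cells in G2 or mitosis and less RNA per such cell cannot be told apart.

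The label of the cells was checked against markers. The squamous genes KRT5 (398 FPKM in normoxia and 442 in hypoxia) and TP63 (42.8 and 44.6) were abundant, and the 6 of 8 squamous markers listed had log2 changes from -0.63 for KRT6A to 0.43 for CDH1. Of 14 markers of leukocytes, endothelium and fibroblasts, 4 were listed, CD68 with 2.36 FPKM in normoxia and 2.86 in hypoxia, CDH5 with 4.78 and 2.83, COL3A1 with 0.0489 and 0.107, and LUM with 0.126 and 0.103. The other 10 were not analysed here, and nothing about their level follows from that, since LDHA, KRT14, EGFR, RRM2 and RFC1 of the lists used here have no value either. All 9 listed genes of a hypoxia response list were at least 2-fold higher in hypoxia, from VEGFA with a log2 change of 1.02 to NDRG1 with 5.58.

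Of the 60 mitosis and kinetochore genes, 20 (33.3%) fell by at least 1.5-fold in hypoxia and none rose by as much. Among all 12106 genes, 11.2% were at least 1.5-fold lower and 9.95% at least 1.5-fold higher. A level below that of normoxia, by any amount, was found for 53 members (88.3%) against 56.4% of all genes. The median log2 change was -0.49 over the members and -0.07 over all genes. The quartiles of the members were -0.68 and -0.29, and those of all genes -0.36 and 0.24. At least 2-fold lower were 5 members, CDC20, PLK1, TROAP, CCNB1 and AURKA, against 2.62% of all genes, and no member was 2-fold higher, against 3.21%. Ranked by log2 change, 3 members were among the lowest 121 genes (the lowest 1%) and 9 (15.0%) among the lowest 605 (the lowest 5%).

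The summed FPKM of the 60 genes was 5730 in normoxia and 4102 in hypoxia. The FPKM of all listed transcripts also summed to less in hypoxia, 458431 against 536005. With both columns set to the same sum, every log2 change moved up by about 0.22, the median of all genes became 0.15 and that of the members -0.26. Then 47 of the 60 were lower, against 36.3% of all genes, 9 were at least 1.5-fold lower, against 4.96%, and none was at least 1.5-fold higher, against 18.2%. Quantile normalization, which gives both columns one distribution, left 47 members lower against 51.5% of all genes and 11 at least 1.5-fold lower against 9.74%, and ANLN alone was at least 1.5-fold higher, against 9.94%. The verbs fell and rose below refer to the values as deposited, and of the 20 members that fell, 9 stayed past the limit under both scalings, CDC20, PLK1, TROAP, CCNB1, AURKA, CDCA8, KIF20A, CENPE and DLGAP5. The members were abundant genes, with a median of 64.5 FPKM in normoxia against 9.27 for all genes tested, and other genes of like abundance were also lower as deposited. Between the quartiles of the members' mean FPKM, 24.9 and 105, the 2461 other genes had a median log2 change of -0.20, with 71.8% lower and 13.6% at least 1.5-fold lower. The 30 members in that range had a median of -0.45, with 28 lower and 6 at least 1.5-fold lower. For the same genes, equal sums gave medians of 0.03 for the others and -0.23 for the members, and quantile normalization -0.03 and -0.27. Within the list, change and level were nearly unrelated, with a Pearson r of -0.07 and a Spearman rho of -0.06 across the 60 genes, which share the same libraries and are not independent.

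**Figure D1:**
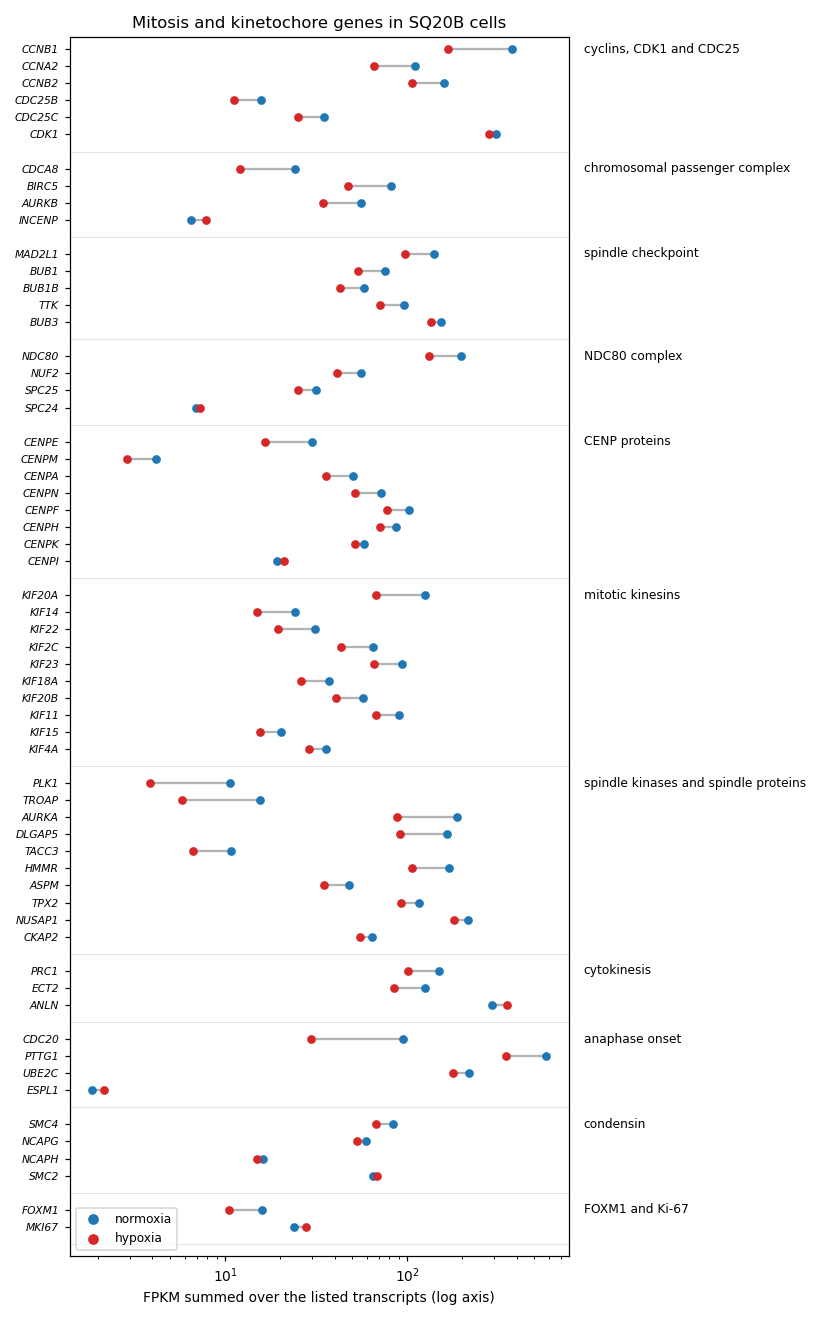
FPKM of each of the 60 genes in normoxia (blue) and hypoxia (red) on a log axis, summed over the listed transcripts and grouped by role, with 1 value per condition and no error bars. The hypoxia point lies to the left in 53 genes and to the right in INCENP, SPC24, CENPI, ANLN, ESPL1, SMC2 and MKI67.

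CDC20, the activator that turns the anaphase-promoting complex on at the end of the checkpoint, had the lowest change of all members. Its single listed transcript, NM_001255 (chr1:43824626-43828873 in hg19), had 94.6 FPKM in normoxia and 29.7 in hypoxia. The log2 change was -1.67, or 3.18-fold lower, and 24 of the 12106 genes had a lower one. PLK1, the Polo-like kinase of mitotic entry and spindle assembly, fell from 10.7 to 3.87 FPKM (-1.45). Its locus in the deposited table, chr16:23690201-23724821, runs on past the end of the gene over ERN2 on the opposite strand. TROAP, which encodes a spindle protein also known as tastin, fell from 15.6 to 5.80 FPKM (-1.41). CCNB1, cyclin B1 (chr5:68462837-68474070), was among the most abundant members and fell from 376 to 168 FPKM (-1.16). AURKA, the Aurora kinase of centrosomes and spindle poles, fell from 189 to 87.7 FPKM (-1.11).

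Genes of this kind are known for a promoter element, the cell cycle homology region, through which MuvB complexes repress them outside G2 and mitosis, often near CCAAT boxes bound by NF-Y. Windows of 30 bases are printed for 8 members, those with the lowest change among the members that had such an element wholly before the gene start. All 8 thus hold it by choice, and they do not show what the lowest members hold in general. In CCNB1 no such element was found, and TROAP and AURKA had no promoter among the sequences used. The element also lay before the start of ANLN, INCENP, MKI67 and ESPL1, which were higher in hypoxia. The sequences are from RefSeq (GRCh38.p14), read 5′ to 3′ on the strand of the gene, and capitals mark each match to TTTGAA or to its variant TTCGAA, or, for matches on the other strand, to TTCAAA.
CDC20: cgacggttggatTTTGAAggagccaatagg
PLK1: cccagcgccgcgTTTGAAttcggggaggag
CDCA8: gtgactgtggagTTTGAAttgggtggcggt
DLGAP5: cctttcaatcaaTTCAAAtatcgcacggag
KIF22: ggcaccggggaaTTCGAAtgggagaggcgg
HMMR: gggagaTTTGAATTTGAAaccggtagggag
CCNB2: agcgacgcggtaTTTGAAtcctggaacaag
PRC1: cccgtggcgcggTTTGAAattttgcggggc

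The CDC20 window lies at chr1:43358904-43358933 on the plus strand, with its element beginning 65 bases before the start and a CCAAT box 10 bases further on. In PLK1 (chr16:23678848-23678877, plus strand) the element begins 29 bases before the start, and in CCNB2 (chr15:59105105-59105134, plus strand) also 29. HMMR (chr5:163460598-163460627, plus strand) holds a tandem pair of TTTGAA. In DLGAP5 (chr14:55191677-55191706, minus strand) the element begins 109 bases before the start and is read on the opposite strand. The others lie at chr1:37692481-37692510 for CDCA8 and chr16:29790712-29790741 for KIF22, both on the plus strand, and at chr15:90994538-90994567 on the minus strand for PRC1. In 7 of the 8 promoters a CCAAT box (CCAAT or ATTGG) began upstream of the element, at any distance, DLGAP5 being the exception. This is not particular to the lowest members. A CCAAT box also began upstream of the element in ESPL1, MKI67 and INCENP, which were higher in hypoxia, but not in ANLN. The share with an upstream box over promoters at large with the element was not analysed here. Counts of both motifs in any order and at any distance can be given. Of all promoters, 5742 held the element, and 2239 of them also a CCAAT box. For promoters of genes tested these numbers were 1718 and 711, and for those of the members 41 and 31.

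The reference table had promoters, from 250 bases before to 50 bases after a start, for 50 of the 60 genes, with 63 windows in all, since 9 genes had more than 1. A cell cycle homology region was found in 41 of the 63 windows (65.1%), against 16.4% of all 35116 promoters and 12.3% of the 13962 promoters of genes tested. CCAAT boxes were in 66.7% of the windows, against 34.6% and 35.7%, and both motifs together in 49.2%, against 6.38% and 5.09%. The E2F letters TTTGGCG or TTTCGCG were in 11.1%, against 3.19% and 4.96%. ACGTG, the core of the hypoxia response element, was in 27.0%, against 21.4% and 25.7%. Both strands were searched for each motif. None contains another, but ATTGG can begin on the last base of TTTGAA, as in CDCA8. These shares describe the list as it was chosen by function and hold no expression value.

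The position of the element was less even in the members than in promoters at large. In the 50 bases before the start, 36.5% of the members' windows held its first base, against 2.73% of all promoters. The next 50 bases after the start held it in 20.6% against 2.41%. Within the list, members with the element were not those with the lower values. Of the 37 genes with a match in any window 9 (24.3%) fell by 1.5-fold, at a median of -0.49. For the 13 genes without a match the median was -0.68, and 7 (53.8%) fell, CCNB1, KIF20A, CENPE, CCNA2, PTTG1, AURKB and TACC3. No match means only that these letters are not in this window. Among the other genes tested, the 1505 with a match had a median of -0.10 and the 8116 without one -0.07.

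**Figure D2:**
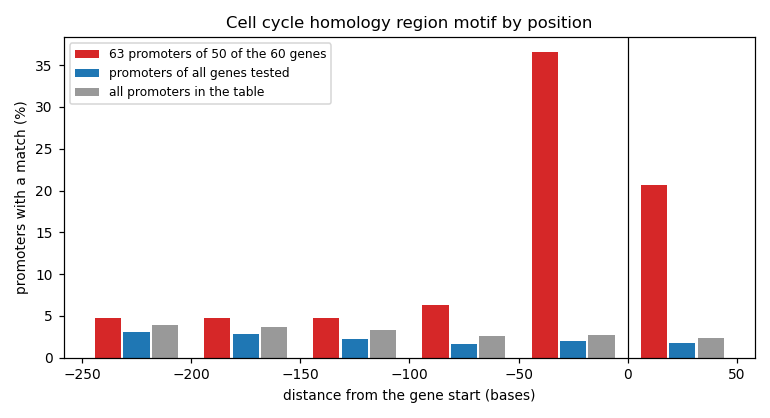
Share of promoters (y axis, percent) with the first base of a cell cycle homology region match in each 50-base bin of distance from the gene start (x axis, bases), for the members (red), all genes tested (blue) and all promoters of the reference table (grey). The members' bars reach 36.5% just before the start and 20.6% just after it, and those of all promoters stay between 2.41% and 3.93%.

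Among the regulators of mitotic entry, cyclins had lower levels while their kinase was nearly level. CCNA2, cyclin A2, fell from 111 to 65.8 FPKM (log2 change -0.75), and CCNB2, cyclin B2, from 159 to 106 FPKM (-0.59), barely past the limit. CDK1, the kinase both bind, had 308 and 282 FPKM (-0.13), lower as deposited and higher with equal column sums or quantile normalization. CCNB1 was thus listed at 1.22 times the level of CDK1 in normoxia and at 0.596 times in hypoxia. The phosphatases that activate CDK1 were also lower by less than 1.5-fold, CDC25B at 15.7 and 11.2 FPKM (-0.49) and CDC25C at 35.1 and 25.04 FPKM (-0.49). The antisense neighbours of CCNA2 and CDC25C, EXOSC9 and FAM53C, overlap 9.24% and 8.80% of their annotated exon bases. EXOSC9 had 40.5 FPKM in normoxia and 24.0 in hypoxia, FAM53C 15.5 and 16.3, and how far its reads entered the values of the members was not tested.

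The chromosomal passenger complex corrects faulty attachments and directs cytokinesis. Its kinase AURKB fell from 55.8 to 34.6 FPKM (-0.69), BIRC5, which encodes survivin, from 81.4 to 47.3 FPKM (-0.78), and CDCA8, which encodes borealin, from 24.2 to 12.2 FPKM (-0.98). INCENP, the scaffold that holds the complex together, was by far the least abundant of the 4 and had a higher value in hypoxia, 7.83 FPKM against 6.47 (0.27). The ratio of AURKB to INCENP was 8.62 in normoxia and 4.42 in hypoxia, and that of BIRC5 to INCENP 12.6 and 6.04.

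None of the 5 spindle checkpoint genes fell by 1.5-fold, against 11.2% of all genes, a share that 5 genes are too few to tell from none. MAD2L1, which encodes the MAD2 inhibitor of CDC20, had 141 FPKM in normoxia and 98.0 in hypoxia (-0.52). The kinases BUB1 (75.9 and 54.2 FPKM, -0.49) and TTK (96.4 and 70.7 FPKM, -0.45) and the pseudokinase BUB1B (58.4 and 42.7 FPKM, -0.45) lay close to it. BUB3, their WD-repeat partner, was nearest to 0 at 155 and 136 FPKM (-0.19), and its direction turned with equal sums or quantile normalization. The level of CDC20 was 0.673 times that of its inhibitor MAD2L1 in normoxia and 0.303 times in hypoxia.

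The NDC80 complex binds microtubules at the kinetochore. Its subunit NDC80 fell from 198 to 131 FPKM (-0.60), barely past the limit, and was at -0.37 with equal sums. NUF2 had 55.9 FPKM in normoxia and 41.1 in hypoxia (-0.44), SPC25 had 31.8 and 25.3 (-0.33), and SPC24, the least abundant, 6.93 and 7.33 (0.08). These proteins are present in the complex in equal numbers, whereas their transcripts were not, with NDC80 at 28.6 times the level of SPC24 in normoxia and 17.9 times in hypoxia.

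Of the 8 CENP genes only CENPE, the kinesin that carries chromosomes to the spindle equator, fell by 1.5-fold, from 29.999 to 16.7 FPKM (-0.85). That share, 12.5%, is close to the 11.2% of all genes. CENPA, the histone H3 variant that marks centromeres, had 50.5 FPKM in normoxia and 35.8 in hypoxia (-0.49), and CENPF, a large kinetochore protein of G2 and mitosis, 103 and 77.5 FPKM (-0.41). The rest are subunits of the constitutive centromere network. CENPM (4.17 and 2.88 FPKM, -0.52) and CENPN (72.4 and 51.9 FPKM, -0.48) were below CENPH (87.2 and 71.3 FPKM, -0.29). CENPK had 58.4 and 52.1 FPKM (-0.17), lower as deposited but higher with equal sums or quantile normalization. CENPI had 19.3 FPKM in normoxia and 21.1 in hypoxia (0.13).

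All 10 mitotic kinesins were lower in hypoxia, and 3 of them (30%) fell by 1.5-fold, against 11.2% of all genes. KIF20A, which acts in cytokinesis, fell from 126 to 67.7 FPKM (-0.89). KIF14, also of cytokinesis, fell from 24.4 to 15.1 FPKM (-0.69), and KIF22, which moves chromosome arms, from 31.4 to 19.5 FPKM (-0.69). KIF2C, which removes tubulin from microtubule ends to correct attachments, had 64.9 FPKM in normoxia and 43.5 in hypoxia (-0.58), just short of the limit. KIF23, the motor of the central spindle, had 94.4 and 65.6 FPKM (-0.52) and KIF11, which pushes spindle poles apart, 90.6 and 67.2 FPKM (-0.43). KIF18A, which damps chromosome movements, had 37.2 and 26.2 FPKM (-0.50), KIF20B 57.2 and 40.9 FPKM (-0.49), KIF15 20.2 and 15.6 FPKM (-0.37) and KIF4A 36.0 and 28.99 FPKM (-0.31). KIF4A has a near-identical copy without introns, KIF4B, with 0.244 and 0.237 FPKM.

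**Figure D3:**
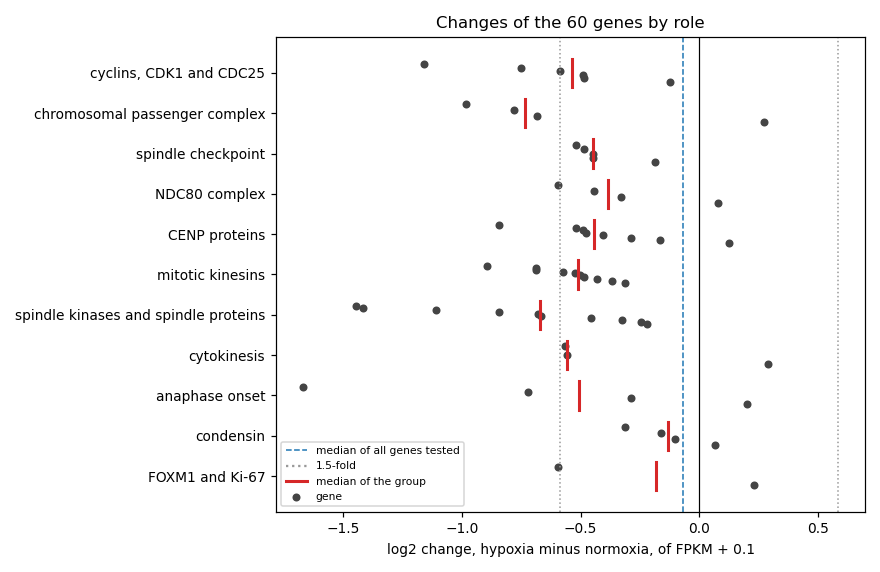
Log2 change from normoxia to hypoxia (x axis) of each of the 60 genes (points) by role (y axis), with the median of each group (red bars), the median of all genes tested (dashed, -0.07) and the 1.5-fold limits (dotted). Group medians run from -0.73 for the chromosomal passenger complex to -0.13 for condensin, and no gene passes the upper limit.

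By share, the chromosomal passenger complex had the most members past the limit as deposited, 75% (3 of 4 genes). With equal sums or quantile normalization only CDCA8 of that complex stayed past it, and AURKB and BIRC5 did not. In the spindle group PLK1, TROAP, AURKA and DLGAP5 stayed past it under both, so the ranking by share was not kept. Spindle kinases and spindle proteins, a larger group, held the highest number as deposited, 6 of 10 (60%), against 11.2% of all genes. Besides PLK1, TROAP and AURKA these were DLGAP5, a microtubule protein of the Aurora A pathway, which fell from 165 to 92.1 FPKM (-0.84), TACC3, an Aurora A substrate at spindle microtubules, from 10.8 to 6.70 FPKM (-0.68), and HMMR, a spindle pole protein, from 170 to 107 FPKM (-0.67). TPX2, the activator of Aurora A, did not fall by 1.5-fold, with 117 FPKM in normoxia and 93.0 in hypoxia (-0.33), so that AURKA went from 1.62 times to 0.944 times its level. ASPM, which focuses spindle poles, had 48.0 and 35.01 FPKM (-0.45). NUSAP1, a microtubule bundler, had 215 and 181 FPKM (-0.25), a direction that turned with quantile normalization, and CKAP2 had 64.1 and 55.0 FPKM (-0.22), which turned with equal sums. OIP5, on the strand opposite to NUSAP1, overlaps 9.76% of its exon bases and was listed at 37.1 and 30.7 FPKM.

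The cytokinesis genes did not move together. PRC1, which bundles the antiparallel microtubules of the central spindle, had 149 FPKM in normoxia and 101 in hypoxia (-0.57), and ECT2, the exchange factor that activates RhoA at the division plane, 125 and 84.9 FPKM (-0.56). The antisense RNA PRC1-AS1 overlaps 34.3% of the exon bases of PRC1 and had 0.598 and 0.570 FPKM. ANLN, anillin, the scaffold of the contractile ring, had 292 FPKM in normoxia and 356 in hypoxia (0.29), the highest change of the 60 genes. It was the most abundant of the 60 genes in hypoxia.

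At the onset of anaphase, PTTG1, which encodes securin, was the most abundant member in normoxia and fell from 580 to 352 FPKM (-0.72). Its near-identical copy PTTG2 had 0.297 and 0.266 FPKM. UBE2C, the ubiquitin-conjugating enzyme of the anaphase-promoting complex, had 219 and 179 FPKM (-0.29), and its direction turned with quantile normalization. ESPL1, which encodes separase, the protease held by securin, was the least abundant member, with 1.87 FPKM in normoxia and 2.16 in hypoxia (0.20).

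Condensin genes lay nearest to the median of all genes. SMC4 had 83.8 FPKM in normoxia and 67.4 in hypoxia (-0.31), and its partner SMC2, the other ATPase of the ring that compacts chromosomes, 65.3 and 68.4 FPKM (0.07). The subunits NCAPG (59.6 and 53.4 FPKM, -0.16) and NCAPH (16.2 and 15.1 FPKM, -0.10) turned to higher levels with equal sums, NCAPG also with quantile normalization and NCAPH also when only its most abundant transcript was used. TRIM59 overlaps 19.0% of the exon bases of SMC4 on the opposite strand, and LCORL 33.7% of those of NCAPG. FOXM1, the transcription factor of many of these genes, fell from 16.0 to 10.5 FPKM (-0.59), barely past the limit, and was at -0.37 with equal sums. ITFG2, on the opposite strand, overlaps 15.9% of its exon bases and had 2.03 FPKM in normoxia and 1.42 in hypoxia. MKI67, which encodes the proliferation marker Ki-67, had 23.9 FPKM in normoxia and 28.04 in hypoxia (0.23).

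Transcripts were also taken singly. A mean of 0.5 FPKM or more was reached by 123 of the 138. Among these, 108 (87.8%) were lower in hypoxia, against 57.4% of all 18190 transcripts at that level. Falls of at least 1.5-fold numbered 50 (40.7%), against 14.3%, and rises 2 (1.63%), against 10.5%. Of the 33 members with more than 1 such transcript, 23 had all of them lower and 9 had transcripts on both sides of 0. AURKA had 6 transcripts with log2 changes from -1.36 for NM_198434 to -0.74 for NM_198433. All 3 of BIRC5 were lower, and NM_001168 carried 90.9% of its FPKM in normoxia and 92.1% in hypoxia.

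A transcript's share of the summed FPKM of its gene moved most in SMC2, TROAP and MKI67. NM_001042550 of SMC2 went from 32.2 to 48.0 FPKM (log2 change 0.57) and from 49.3% to 70.2% of the gene, while NM_006444 fell from 24.5 to 14.6 FPKM (-0.74) and from 37.5% to 21.4%. The nearly level sum of SMC2 thus joined transcripts that moved in opposite directions. NM_001278324 of TROAP fell from 7.51 to 1.60 FPKM (-2.16), and its share went from 48.0% to 27.6%, while NM_001100620 fell from 6.23 to 2.98 FPKM (-1.04). NM_002417 of MKI67 rose from 13.5 to 20.6 FPKM (0.61) and NM_001145966 had 10.4 and 7.43 FPKM (-0.48), with the share of the former going from 56.4% to 73.5%. A pair of further genes was picked after their values were seen. NM_004856 of KIF23 fell from 76.1 to 43.4 FPKM (-0.81), whereas NM_138555 had 17.8 in normoxia and 21.98 in hypoxia (0.30). NM_181801 of UBE2C rose from 26.5 to 41.9 FPKM (0.66) beside the main transcript NM_007019, with 184 and 133 FPKM (-0.47). Cuffdiff divides reads of overlapping transcripts by a model, and the reads behind each share were not analysed here.

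**Figure D4:**
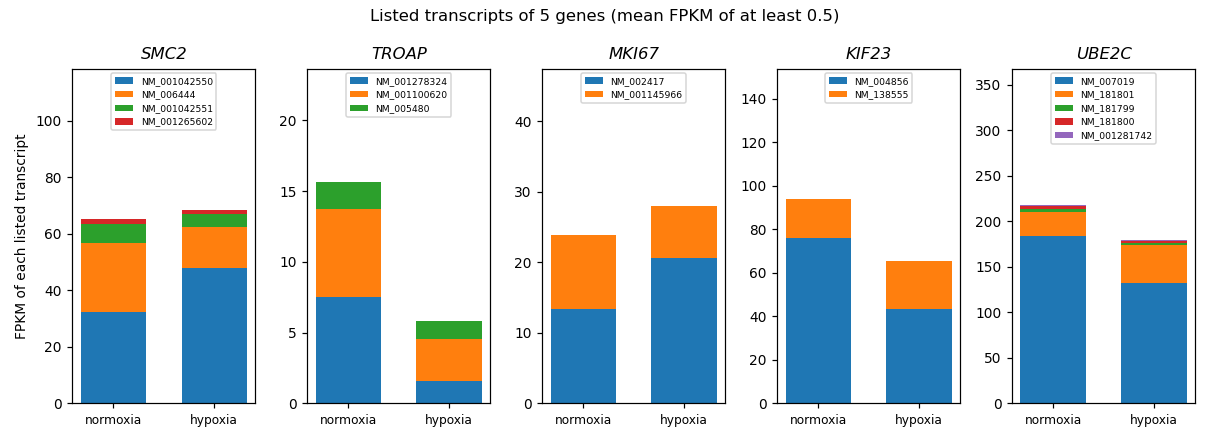
FPKM (y axis, from 0) of the listed transcripts with a mean of at least 0.5 FPKM, stacked, in normoxia and hypoxia for SMC2, TROAP, MKI67, KIF23 and UBE2C. The stack of SMC2 keeps its height while NM_001042550 grows from 32.2 to 48.0 FPKM, and that of TROAP shrinks mainly through NM_001278324.

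A further 109 genes of mitosis, on lists by complex, served for comparison, and 107 passed the FPKM limit. Of these, 86 were lower in hypoxia, 15 (14.0%) fell by at least 1.5-fold and 2 (1.87%) rose, with a median log2 change of -0.23. The 14.0% stands beside 11.2% of all genes, and the 1.87% beside 9.95%. With equal sums the median was -0.0033 and 54 of the 107 were lower. All genes then had a median of 0.15, with 36.3% lower and 4.96% at least 1.5-fold lower. Of the 16 genes of the anaphase-promoting complex and its partners 15 were lower and 3 (18.8%) fell, with a median of -0.30. With equal sums 9 were lower and 1 fell, with a median of -0.095. The lowest was UBE2S, which extends ubiquitin chains for the complex, at 6.69 FPKM in normoxia and 1.96 in hypoxia (-1.72), close to the value of CDC20. ANAPC2 was the highest, with 0.520 and 0.614 FPKM (0.20). Among 28 further kinetochore and centromere genes 26 were lower and 2 (7.14%, below the 11.2% of all genes) fell, with a median of -0.28, from CENPL (21.5 and 12.5 FPKM, -0.78) to CENPQ (33.2 and 33.4 FPKM, 0.01). With equal sums 17 were lower and none fell, with a median of -0.051. Further spindle and cytokinesis genes had a median of -0.26 over 24 genes. Of these, 3 (12.5%) fell, close to the 11.2% of all genes, and 1 (4.17%) rose, against 9.95%. The list ran from BORA, a cofactor of PLK1 activation, which fell from 27.2 to 14.7 FPKM (-0.88), to NUMA1, a spindle pole protein, which rose from 7.19 to 11.7 FPKM (0.70).

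Cohesin and its regulators, which hold sister chromatids together, had a median log2 change of 0.06 over 13 genes, with none past the limit, from STAG1 (-0.44) to PDS5B (0.30). The 4 further condensin subunits had a median of -0.08, from NCAPH2 (-0.38) to NCAPG2 (0.16), a median that turned positive with equal sums or quantile normalization. Mitotic entry regulators gave a median of -0.25 over 11 genes, with 3 falls (27.3%, against 11.2% of all genes). CCNF, cyclin F, fell most, from 11.2 to 4.35 FPKM (-1.34), and PPP2R2A, a phosphatase subunit that opposes CDK1, was highest (0.35). The 11 DREAM and MuvB genes, whose products repress or activate many of the 60 genes, had a median of -0.22, which was 0.0064 with equal sums and -0.42 with the most abundant transcript only. LIN52 fell from 16.1 to 8.34 FPKM (-0.94) and RBL2, the p130 pocket protein of the repressive form, rose from 19.3 to 29.5 FPKM (0.61).

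Genes of earlier cell cycle steps are given beside the members for their values only, as no test of a difference between lists was made. The 47 genes of DNA replication and dNTP synthesis had a median log2 change of -0.31, with 41 lower. At least 1.5-fold lower were 8 (17.0%), against 11.2% of all genes, and 1 (2.13%) was at least 1.5-fold higher, against 9.95%. The list ran from ORC6 (-0.73) to TYMS (1.16). None was 2-fold lower, against 2.62% of all genes, a share that 47 genes are too few to tell from none, and 5 of the 60 members. By direction the lists were alike as deposited, with 87.2% of the replication genes and 88.3% of the members lower. With equal sums 30 of the 47 replication genes and 47 of the 60 members were lower, against 36.3% of all genes. The 16 G1 cyclins and CDK inhibitors had a median of 0.02. CCND1, cyclin D1, fell from 75.7 to 40.3 FPKM (-0.91), while CDKN1A, the p21 inhibitor, rose from 16.6 to 34.4 FPKM (1.05). The 13 RB and E2F genes had a median of -0.45, with 6 falls and 2 rises (15.4%, against 9.95% of all genes). The list ran from E2F2 (-0.85) to E2F7 (0.68). As deposited, the share of falls in RB and E2F, 46.2%, was above the 33.3% of the members and the 11.2% of all genes. RBL1, RBL2, E2F4, E2F5 and TFDP1, with 3 of those falls, are also on the DREAM and MuvB list and so among the further genes of mitosis above. With quantile normalization the median of RB and E2F was -0.43 and that of the 60 mitosis and kinetochore genes -0.29. The order of the 2 lists by share at least 1.5-fold lower was kept there, but it turned under 2 other scalings. With equal sums 1 of the 13 RB and E2F genes and 9 of the 60 members were past that limit. With median centring these numbers were 3 and 17.

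**Figure D5:**
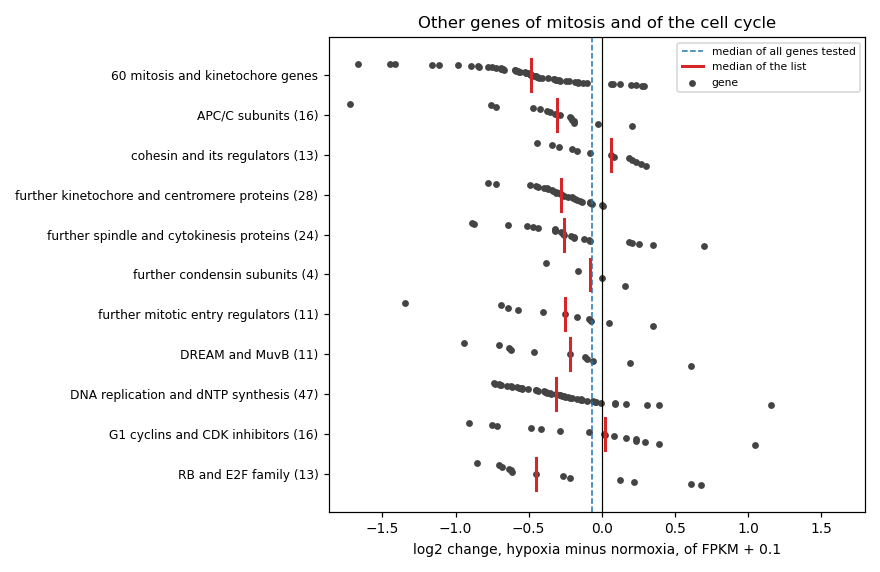
Log2 change from normoxia to hypoxia (x axis) of single genes (points) in each list (y axis, number of genes tested in brackets), with list medians (red bars) and the median of all genes tested (dashed). As deposited the 60 genes have a median of -0.49 and RB and E2F -0.45, an order that quantile normalization turned (-0.29 and -0.43), and cohesin and the G1 list lie at 0.06 and 0.02.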

How the data were processed

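RNA-seq was analysed from 1 table of the whole series, with 4 normoxic and 4 hypoxic cultures grouped by their source labels. Poly(A)+ stranded libraries were aligned by the authors to hg19 with STAR 2.3.0.1, and Cufflinks 2.1.1 was run with RefSeq annotation, per the labels and the methods of the study. The deposited FPKM values are the authors', 1 per condition over its replicates, so the fit with limma planned for single cultures could not be run and no p-value, SD or interval is given. Depth of single libraries was not analysed here, and the precision of low values is unknown. The strand setting of the counting is not given in the sources used here. The other columns hold the authors' fold changes, test statistics, p-values and q-values and were not used.

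RefSeq identifiers were paired with symbols through the annotation of GRCh38.p14 (24293 of 24812 matched, names only). FPKM was summed per gene, 0.1 was added, and genes with a mean of at least 0.5 FPKM were compared. Locus starts of the deposited table were raised by 1, since 1082 loci then matched a transcript of the GRCh37 annotation against 81 as written. Calculations were tested on simulated data with known changes. A planned search of the member proteins for the KEN degradation motif was not run, as protein sequences were not used here. Alternatives covered the added value, the FPKM limit, scaling, the summing of transcripts and the fold limit. All 60 members may be named, and of each other list the lowest and the highest gene. Members and lists were chosen with earlier results of these data known, and the genes as abundant as the members, the antisense overlaps and the motif positions were added after the data were examined. Scripts ran under Python 3.11.15, with matplotlib 3.10.9 for the figures and scipy 1.17.1, pandas 2.3.3 and numpy 2.4.6 for the values.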

Additional observations from a re-analysis of the deposited data

How the results depend on the processing

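No paired analysis was possible because the files give 1 value per condition, and for the same reason no replicate was left out. Scaling the columns to equal sums gave a median log2 change of -0.26 for the 60 genes with 9 at least 1.5-fold lower, 0.15 for all genes, -0.0033 for the other genes of mitosis, -0.087 for DNA replication, 0.24 for G1 cyclins and CDK inhibitors, -0.23 for RB and E2F, 0.15 for further condensin and 0.0064 for DREAM and MuvB. Over all genes 601 were then at least 1.5-fold lower and 2202 higher, against 1361 and 1204 as deposited, and a pseudocount of 1 gave 719 higher. The falls of at least 1.5-fold numbered 5 in place of 15 among the other genes of mitosis, 0 in place of 8 in DNA replication, 1 in place of 3 among G1 cyclins and CDK inhibitors and 1 in place of 6 in RB and E2F. Medians of the smaller lists were then -0.095 for the anaphase-promoting complex (1 fall in place of 3), -0.051 for further kinetochore genes (0 in place of 2), -0.035 for further spindle and cytokinesis genes, -0.025 for mitotic entry (1 in place of 3) and 0.29 for cohesin, and DREAM and MuvB had 1 fall in place of 4. With quantile normalization the medians were -0.29 for the 60 genes (11 at least 1.5-fold lower, and 1, ANLN, higher), -0.10 for the other genes of mitosis, -0.11 for DNA replication, -0.43 for RB and E2F, 0.12 for G1 cyclins and CDK inhibitors, -0.18 for the anaphase-promoting complex, -0.16 for further kinetochore genes, -0.093 for further spindle and cytokinesis genes, -0.051 for mitotic entry, 0.19 for cohesin, -0.24 for DREAM and MuvB and 0.087 for further condensin. Falls then numbered 1 in DNA replication, 1 among G1 cyclins and CDK inhibitors and 2 in DREAM and MuvB. With median centring they numbered 5, 3 and 2, and 3 in RB and E2F. With the most abundant transcript only, 1 member, MKI67, was at least 1.5-fold higher, 2 further spindle and cytokinesis genes were, and the medians were -0.00998 for cohesin, -0.42 for DREAM and MuvB and -0.38 for mitotic entry. With a 2-fold limit 5 members were lower, and with a 1.2-fold limit 46 were lower and 2 higher. Without the 6 members whose exons overlap a listed coding gene on the opposite strand by at least 5%, the median of the other 54 was -0.49. The pseudocounts of 1 and 0.01, the FPKM limits and median centring moved none of the counts of members by over 1.5 times. Of the 60 members, 8 turned direction under at least 1 of the 8 alternatives, none of them past 1.5-fold as deposited. Without values of single cultures, the precision of each change could not be judged.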
